A study of Mus musculus with 11 samples.

Results

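Expression of the Ly6 antigen genes was examined in kidneys of lupus-prone MRL/lpr mice with and without DNase I and in control kidneys. The members were a chosen list of Ly6 symbols, and all 7 (Ly6a, Ly6c1, Ly6c2, Ly6d, Ly6e, Ly6i and Ly6k) were among the 25677 genes listed. Other listed genes with Ly6 symbols, such as Ly6f, Ly6g2 and Ly6a2, were placed in a separate superfamily list. The members were chosen with earlier results of these data known, so counts over them do not describe every Ly6 gene. The Ctr group held 3 untreated mice labelled C57B6, the Lpr group 4 untreated MRL/lpr mice and the DNase group 4 MRL/lpr mice that received DNase I by daily intraperitoneal injection from week 17. All 11 mice were 21 weeks old, and each gave 1 kidney RNA-seq library. Both MRL/lpr groups carry the lpr mutation of Fas on the MRL background, and the Ctr mice differ from them in the whole background. Strain, the lpr mutation and disease therefore cannot be told apart in any comparison with Ctr.

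Ly6 proteins are small cysteine-rich proteins that are mostly held on the cell surface by a glycosylphosphatidylinositol (GPI) anchor. Many are used as surface markers of leukocyte subsets, and several are induced by interferons. Inbred mouse strains carry different alleles at this locus, and the Ly6 antigens were first defined as such alloantigens. In the kidney, the endothelium and infiltrating leukocytes are known sources of Ly6a and Ly6c.

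The genes lie close together. In GENCODE gene models on build GRCm38, the 7 genes span 350 kb of chromosome 15, from Ly6d at chr15:74762056-74763620 to Ly6c2 at chr15:75108158-75111970. Between them lie Ly6k (chr15:74796874-74799986), Ly6e (chr15:74955051-74959905), Ly6i (chr15:74979534-74983430), Ly6a (chr15:74994877-74998031) and Ly6c1 (chr15:75044018-75048830). Ly6e is on the plus strand and the other 6 are on the minus strand. Ly6a2 (chr15:75131377-75135128, minus strand) and Ly6f (chr15:75268421-75272235, plus strand) follow beyond Ly6c2, with Ly6g (chr15:75155240-75159126, plus strand) between them, and were described as neighbours.

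Sequence similarity limits what counts of the family can separate. The coding sequences of Ly6c1 and Ly6c2 both had 396 bases, differed at 9 of them and were 97.7% identical. The next closest pair was Ly6a and Ly6i at 86.4%, whereas Ly6d was 53.5% identical to Ly6c2. The first 120 coding bases of the Ly6c pair are shown because they hold 6 of the 9 differences, which are in capitals.
Ly6c1, bases 1 to 120: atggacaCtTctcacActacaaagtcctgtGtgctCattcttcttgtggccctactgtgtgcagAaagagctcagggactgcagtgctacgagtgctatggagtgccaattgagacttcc
Ly6c2, bases 1 to 120: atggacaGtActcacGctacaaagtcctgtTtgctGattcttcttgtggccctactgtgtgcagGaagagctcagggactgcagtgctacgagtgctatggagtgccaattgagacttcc
The last 120 coding bases hold 2 more differences, again in capitals.
Ly6c1, bases 277 to 396: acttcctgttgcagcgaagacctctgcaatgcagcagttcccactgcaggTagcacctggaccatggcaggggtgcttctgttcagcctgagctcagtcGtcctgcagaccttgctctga
Ly6c2, bases 277 to 396: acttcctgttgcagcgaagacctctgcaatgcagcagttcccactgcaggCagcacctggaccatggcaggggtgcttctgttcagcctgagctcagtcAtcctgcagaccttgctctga
Pooled over all listed transcripts of each gene, 159 of 2737 windows of 100 bases in Ly6c2 (5.81%) also occurred in Ly6c1. Only identical windows were counted. The Ly6c2 length behind the FPKM values was 925 bases, far fewer than the pooled windows, so the shared part of the counted sequence may be larger and was not taken. For Ly6c1, 178 of 1756 windows (10.1%) occurred in another Ly6 gene, which was Ly6c2 for 159 of them and Ly6a for 19. No such window was shared by Ly6d, Ly6e, Ly6i, Ly6k, Ly6a2 or Ly6f. These figures hold for the reference sequence, and how reads from MRL alleles aligned to it was not tested.

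Promoters of 2 of the 7 members, Ly6c1 and Ly6c2, and of their neighbour Ly6a2 were in the RefSeq table for build GRCm38.p6. They are shown because Ly6c2 and Ly6a2 differed from Ctr by similar amounts below, whereas Ly6c1 differed by less. Each runs from 250 bases before to 50 bases after the gene start. Capitals mark the PU box GAGGAA, a sequence recognised by the myeloid factor PU.1, on either strand. Other sequences that PU.1 may bind were not searched, so a window without a match may still hold a site.
Ly6c1, chr15:75048788-75049087, minus strand: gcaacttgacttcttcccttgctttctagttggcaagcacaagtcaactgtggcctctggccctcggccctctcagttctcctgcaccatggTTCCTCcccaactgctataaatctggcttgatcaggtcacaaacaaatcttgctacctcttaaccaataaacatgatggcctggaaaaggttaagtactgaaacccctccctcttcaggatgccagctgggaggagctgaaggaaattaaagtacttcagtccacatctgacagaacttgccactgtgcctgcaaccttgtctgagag
Ly6c2, chr15:75111922-75112221, minus strand: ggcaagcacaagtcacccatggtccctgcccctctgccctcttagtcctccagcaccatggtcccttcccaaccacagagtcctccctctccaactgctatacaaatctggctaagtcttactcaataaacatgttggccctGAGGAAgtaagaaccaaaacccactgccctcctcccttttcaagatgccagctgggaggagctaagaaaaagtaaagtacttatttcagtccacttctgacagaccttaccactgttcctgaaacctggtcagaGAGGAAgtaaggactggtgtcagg
Ly6a2, chr15:75135079-75135378, minus strand: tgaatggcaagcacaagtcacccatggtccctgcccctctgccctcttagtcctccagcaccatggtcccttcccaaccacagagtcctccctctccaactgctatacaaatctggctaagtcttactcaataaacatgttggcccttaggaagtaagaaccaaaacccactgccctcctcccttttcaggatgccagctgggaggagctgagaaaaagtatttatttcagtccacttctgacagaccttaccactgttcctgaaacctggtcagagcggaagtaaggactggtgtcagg
The Ly6c2 and Ly6a2 promoters were 98.3% identical over 295 aligned bases, and Ly6c1 and Ly6c2 were 78.2% identical over 266. The PU box occurred 1 time in the Ly6c1 window, 2 times in that of Ly6c2 and 0 times in that of Ly6a2. A second listed start of Ly6c1 had 2 in its window (chr15:75048614-75048913), so the count depended on the start chosen. The neighbours Ly6f and Ly6g also had listed promoters, which are not printed. That of Ly6f was 83.6% identical to both Ly6c2 and Ly6a2 and held 2 PU boxes. Ly6f lay below Ctr, with log2 fold changes of -2.99 in Lpr and -4.01 in DNase. Whether promoter likeness bears on these differences was not tested. Of 32851 promoters, 28.3% held the PU box. Neither the interferon-stimulated response element core (GAAA and GAAA with any 2 bases between them, in 3.44% of promoters) nor the GAS element TTCNNNGAA (8.3%) was found on either strand in the 3 windows. A match is a description of the letters and not a binding site.

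Sequencing depth was similar, with 33469858 to 38460873 reads counted in genes per kidney. Lpr replicate 3 stood apart from the other libraries: relative to the mean of all kidneys its log2 CPM fell with gene length, by a slope of -0.426 per log2 of length, against -0.0438 to 0.0837 in the other 10. The genes of kidney tubule and podocyte cells were high in every group, with 8 of 8 markers detected and a summed level of 9537 to 16159 CPM (counts scaled to library size) per kidney. Levels below are CPM after TMM scaling between libraries, unless counts or FPKM (which also divides by gene length) are named.

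On the FPKM scale, Ly6a was the most abundant member in all 3 groups. In Ctr its mean was 395 ± 18.2 (SD, n = 3), followed by Ly6e at 89.2 ± 22.9, Ly6c1 at 47.4 ± 5.6 and Ly6d at 14.1 ± 11.9. Ly6c2 (1.91 ± 0.391), Ly6k (0.0765 ± 0.101) and Ly6i (0.0342 ± 0.0297) were lowest. In that order, the Ctr ranges of Ly6d and Ly6c2 overlapped, as did those of Ly6k and Ly6i. In Lpr (n = 4) the order was Ly6a (943 ± 231), Ly6e (229.5 ± 67.8), Ly6c1 (83.2 ± 12.1), Ly6c2 (36.4 ± 15.9), Ly6d (17.9 ± 12.5), Ly6i (2.36 ± 1.25) and Ly6k (0.217 ± 0.197). Ly6c2 thus stood before Ly6d in Lpr and after it in Ctr, although in Lpr their ranges overlapped. The DNase kidneys had the same order as Lpr, with Ly6a at 679 ± 72.6 and Ly6c2 at 34.3 ± 6.12 FPKM (SD, n = 4), and there the ranges of Ly6c2 and Ly6d did not overlap.

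**Figure D1:**
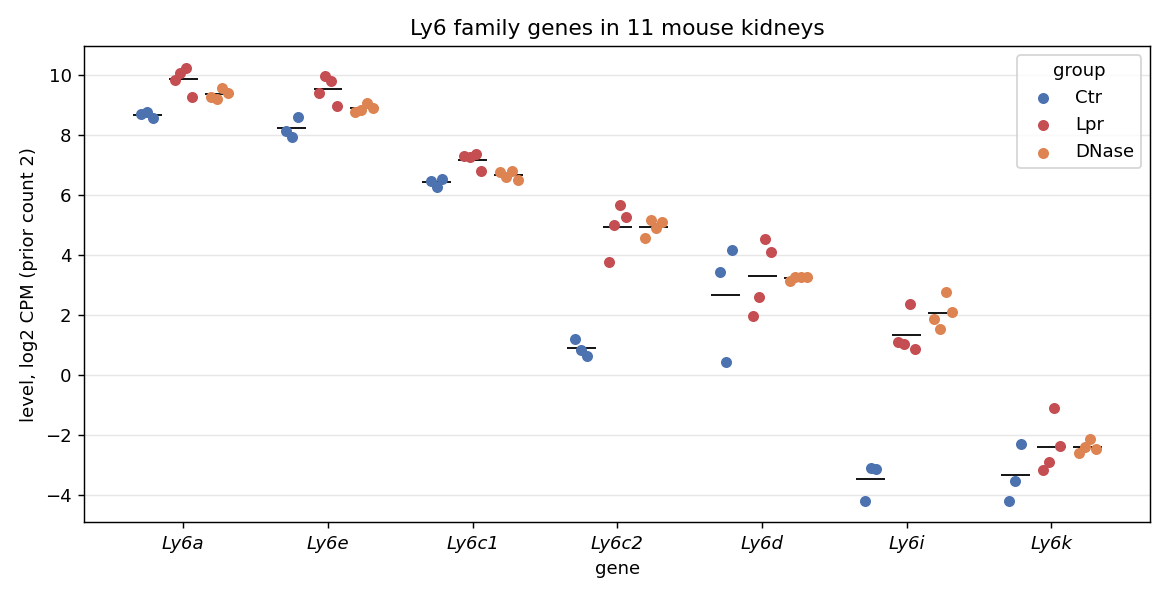
Levels of the 7 Ly6 genes in each kidney, as log2 CPM with a prior count of 2 on the vertical axis, where each point is a kidney and each bar a group mean. Ly6c2 and Ly6i lay higher in all 8 MRL/lpr kidneys than in the 3 Ctr kidneys, while the Ly6d and Ly6k ranges overlapped.

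The first comparison asked how Lpr kidneys differ from Ctr. Of the 6 members with enough counts to test, 5 rose in Lpr (edgeR's quasi-likelihood test, Benjamini-Hochberg adjusted p under 0.05), namely Ly6i, Ly6c2, Ly6e, Ly6a and Ly6c1, and 0 fell. Among all 16074 genes tested, 7.27% rose and 2.92% fell. The median log2 fold change was 1.28 over the 6 members and 0.03 over all genes. In these bulk samples more cells of a type and more RNA per cell cannot be told apart. Ly6i and Ly6c2 also passed a log2 fold change of 2, which 4.65% of genes did in that direction. In 5 of 6 members all Lpr kidneys were above all Ctr kidneys, as in 14.2% of genes.

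Ly6c2 encodes the Ly6C antigen of inflammatory monocytes. Its levels were 2.24, 1.72 and 1.53 CPM in Ctr and 13.8, 32.1, 51 and 38.8 CPM in Lpr replicates 1 to 4. The lowest Lpr kidney, replicate 1, still exceeded the highest Ctr kidney. The log2 fold change was 4.22 (SE 0.467, edgeR adjusted p = 0.00103), an 18.7-fold difference.

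Ly6i, a close relative of Ly6a found on monocytes and macrophages, was almost undetected in Ctr. The 3 Ctr kidneys had 0, 2 and 2 counts, against 74, 78, 176 and 63 counts in Lpr. The groups did not overlap, and Lpr replicate 3 was high within its group. The depth-scaled ratio of summed counts was 72, with a 95% exact interval of 27.9 to 266 that covers counting error only. The fitted log2 fold change of 6.02 (SE 0.796, edgeR adjusted p = 0.0022) depends on the prior count because Ctr is near 0, and it was 5.42 without Ctr replicate 1.

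Ly6a encodes Sca-1, an interferon-inducible antigen of stem cells, lymphocytes and endothelium. It stood at 418, 434 and 381 CPM in Ctr and at 903, 1071, 1216 and 620.1 CPM in Lpr. The ranges did not overlap, with Lpr replicate 4 closest to Ctr. The log2 fold change was 1.23 (SE 0.247, edgeR adjusted p = 0.015). Leaving out 1 Ctr kidney left the size at 1.17 to 1.26 but ended the call, with adjusted p = 0.0757 without replicate 1, 0.0631 without replicate 2 and 0.0776 without replicate 3.

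Ly6e, a broadly expressed interferon-induced member that acts on viral entry, showed 284, 248 and 387 CPM in Ctr and 673, 1007, 883 and 499 CPM in Lpr. Again the lowest Lpr kidney was replicate 4, which was still above Ctr. The log2 fold change was 1.34 (SE 0.287, edgeR adjusted p = 0.0201). The call was lost without Ctr replicate 1 (adjusted p = 0.102), Ctr replicate 2 (0.0988) or Lpr replicate 2 (0.051).

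Ly6c1, the copy known from endothelium, measured 89.3, 77 and 92.3 CPM in Ctr and 157, 156, 164 and 111 CPM in Lpr. The groups did not overlap, but Lpr replicate 4 lay well below the other 3. Its log2 fold change of 0.78 (SE 0.186, edgeR adjusted p = 0.0306) was the smallest of the 5. This call was the least stable of the 5. A gene length correction gave 0.53 with an adjusted p of 0.0656, and leaving out Ctr replicate 1, 2 or 3 or Lpr replicate 1 or 2 gave adjusted p = 0.124, 0.149, 0.0993, 0.0768 and 0.0847. With Lpr replicate 3 left out, 5 members were still past the test.

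Ly6d, an antigen of squamous epithelium and early B lineage cells, varied widely within groups. Ctr kidneys had 10.7, 1.31 and 17.9 CPM and Lpr kidneys 3.9, 6.01, 23.1 and 17 CPM. The ranges overlapped, and the log2 fold change of 0.34 (SE 0.825) did not pass the edgeR test (adjusted p = 0.857). Its sign turned to -0.18 without Ctr replicate 2, the lowest kidney, to -0.14 without Lpr replicate 3 and to -0.06 with the length correction. Urothelial and squamous markers also ranged widely, with summed levels of 14 to 115 CPM in Ctr and 10.4 to 105 in Lpr, and their part in the Ly6d values was not tested.

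Ly6k, a germ cell member of the testis, was too low to test. It had 0, 1 and 5 counts in Ctr, 2, 3, 14 and 5 in Lpr and 4, 5, 7 and 5 in DNase. The ranges overlapped, and the testis markers were near 0 in every group, with 0 to 4 counts of Ddx4 and 0 to 1 counts of Tnp1 and Prm1 per kidney.

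**Figure D2:**
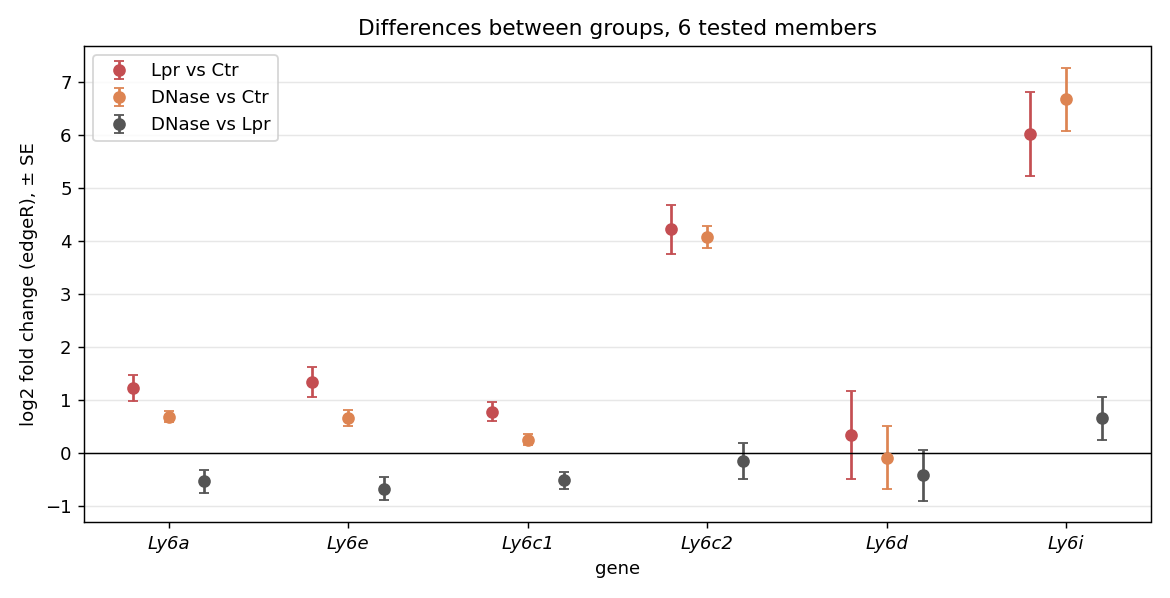
Log2 fold changes of the 6 tested members with their standard errors in each of the 3 comparisons, from edgeR fits of the deposited counts. Ly6i and Ly6c2 lie above 3 in both comparisons with Ctr, and in DNase vs Lpr no member passed the test.

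The DNase kidneys were then set against the same 3 Ctr kidneys, so both comparisons share their controls. In DNase 4 of 6 members rose (Ly6i, Ly6c2, Ly6a and Ly6e) and 0 fell, against 13.1% of 16100 genes that rose and 8.61% that fell. The median log2 fold change was 0.67 over the 6 members and 0 over all genes. Ly6i and Ly6c2 again passed a log2 fold change of 2, which 4.56% of genes did in that direction. In 4 of 6 members the DNase kidneys were all above the Ctr kidneys, as in 18.2% of genes.

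Ly6c2 measured 23.5, 35.8, 29.9 and 34.1 CPM in DNase, all far above the Ctr values, with a log2 fold change of 4.07 (SE 0.206, edgeR adjusted p = 3.5e-06). Ly6i had 130, 107, 268 and 166 counts and a depth-scaled count ratio to Ctr of 120.5 (95% exact interval 46.8 to 443). Its fitted log2 fold change was 6.68 (SE 0.595, edgeR adjusted p = 6.54e-05), or 6.07 without Ctr replicate 1. Both genes were thus separated from Ctr without overlap in both MRL/lpr groups.

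Ly6a reached 617, 598, 756 and 670.2 CPM in DNase, a log2 fold change of 0.68 over Ctr (SE 0.104, edgeR adjusted p = 0.00142). Ly6e reached 441, 462, 539 and 485 CPM, a log2 fold change of 0.65 (SE 0.152, edgeR adjusted p = 0.0137). Neither gene overlapped with Ctr. With all 3 groups in 1 fit, which takes its spread from the Lpr kidneys too, both calls were lost (edgeR adjusted p = 0.054 for Ly6a and 0.113 for Ly6e), and without Ctr replicate 1 the Ly6e call was lost (0.0602).

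Ly6c1 measured 108, 97.6, 113 and 91.2 CPM in DNase. Its range overlapped with Ctr, and the log2 fold change of 0.25 (SE 0.0991) did not pass (edgeR adjusted p = 0.111). Ly6d was even across the DNase kidneys at 8.73, 9.56, 9.73 and 9.66 CPM, within the Ctr range. Its log2 fold change was -0.09 (SE 0.589, edgeR adjusted p = 0.937), with a sign that depended on the fit.

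The comparison of DNase with Lpr kidneys set treated against untreated MRL/lpr mice. No vehicle injection is described in the sources used here, so DNase I and the injections cannot be told apart. By edgeR 0 of 6 members passed, as did 0 of all 15832 genes tested (0%). By DESeq2 0 members and 19 genes in all passed. At an unadjusted p under 0.05 there were 3 members, Ly6a, Ly6c1 and Ly6e, while 5.6% of genes had such a p.

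Ly6c1 had a log2 fold change of -0.52 (SE 0.158, edgeR adjusted p = 0.82), Ly6e of -0.68 (SE 0.216, adjusted p = 0.82) and Ly6a of -0.54 (SE 0.211, adjusted p = 0.854). In all 3 genes the level of Lpr replicate 4 lay within the DNase range, and the other 3 Lpr kidneys were above that range. The log2 fold change was -0.15 (SE 0.338, adjusted p = 0.924) for Ly6c2 and -0.42 (SE 0.481, adjusted p = 0.87) for Ly6d. Ly6i had the only positive value, 0.65 (SE 0.408, adjusted p = 0.854). At this spread between kidneys a treatment difference in these genes was not detectable after adjustment, which does not show that the groups were alike.

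Because the Ly6c genes are near copies, the share of Ly6c2 in the summed Ly6c1 and Ly6c2 counts was also taken within each kidney. In Ctr it was 2.45%, 2.19% and 1.63%, in Lpr 8.08%, 17.1%, 23.7% and 25.9%, and in DNase 17.8%, 26.8%, 20.9% and 27.2%. All 8 MRL/lpr kidneys were above all Ctr kidneys, and Lpr replicate 1 was lowest among the 8. Counting error was small beside this spread, with a 95% exact binomial interval of 7.4% to 8.79% for Lpr replicate 1.

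The mean share was 2.09% ± 0.417 (SD, n = 3) in Ctr, 18.7% ± 8.01 (n = 4) in Lpr and 23.2% ± 4.6 (n = 4) in DNase. The differences from Ctr were 16.6 points for Lpr and 21.1 points for DNase, each with p = 0.0571 in an exact two-sided permutation test, the smallest p that 3 against 4 kidneys allow. DNase and Lpr differed by 4.51 points (exact permutation p = 0.4), and by 0.965 points without Lpr replicate 1. Taken from FPKM, which divides by gene length, the share differed from Ctr by 26 points in Lpr and 32.4 points in DNase.

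**Figure D3:**
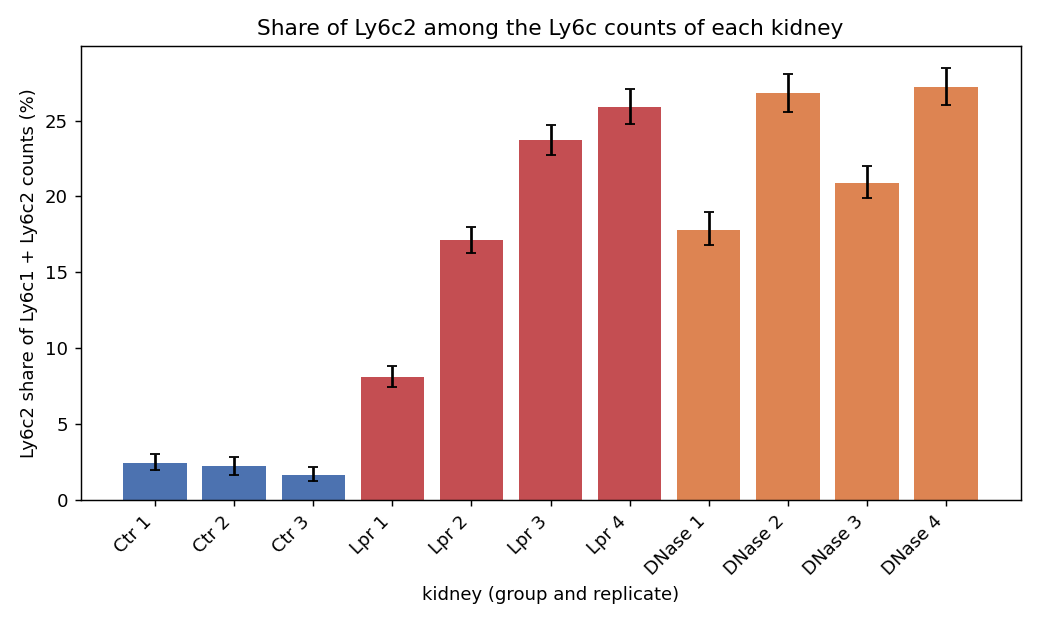
Share of Ly6c2 in the summed counts of Ly6c1 and Ly6c2, in percent, for each of the 11 kidneys, with bars starting at 0 and 95% exact binomial intervals that cover counting error only. Ctr kidneys lie between 1.63% and 2.45% and MRL/lpr kidneys between 8.08% and 27.2%.

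With the counts of Ly6c1, Ly6c2 and Ly6a2 summed to 1 feature, an alternative chosen after the data were seen, the log2 fold change was 1.06 in Lpr vs Ctr (edgeR adjusted p = 0.00673) and 0.61 in DNase vs Ctr (0.00102). In DNase vs Lpr it was -0.44 (adjusted p = 0.819). The rise of the Ly6c loci together was thus smaller on the log2 scale than that of Ly6c2 alone, and Ly6c1 held most of the summed counts.

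Beyond Ly6c2 the locus continues with Ly6a2, Ly6g and Ly6f, of which Ly6g was too low to test, Ly6a2 rose and Ly6f fell. Ly6a2, whose promoter nearly equals that of Ly6c2, had 4, 0 and 2 counts in Ctr, 35, 40, 28 and 32 in Lpr and 31, 30, 38 and 32 in DNase. No MRL/lpr kidney overlapped with Ctr, and the depth-scaled count ratio was 16.6 (95% exact interval 7.42 to 46) in Lpr and 15.7 (7.01 to 43.5) in DNase. Among all genes, 14.2% lay wholly above Ctr in Lpr and 18.2% in DNase. The fitted log2 fold change of Ly6a2 was 3.95 (SE 0.66, edgeR adjusted p = 0.00626) in Lpr and 3.81 (SE 0.573, adjusted p = 0.00129) in DNase. Without Ctr replicate 1, which held 4 of the 6 Ctr counts, it was 4.79 in Lpr and 4.66 in DNase.

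Ly6f had 161, 82 and 136 counts in Ctr, 18, 9, 30 and 7 in Lpr and 17, 0, 2 and 15 in DNase. All 8 MRL/lpr kidneys were below the 3 Ctr kidneys, and the log2 fold change was -2.99 (SE 0.528, edgeR adjusted p = 0.00806) in Lpr and -4.01 (SE 0.723, adjusted p = 0.00361) in DNase, where it was -4.61 without DNase replicate 1. The share of all genes wholly below Ctr is not reported here. By the edgeR test 2.92% of all genes fell in Lpr vs Ctr and 8.61% in DNase vs Ctr.

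Within about 350 kb the locus therefore held genes with large differences from Ctr (Ly6i, Ly6c2) beside genes with moderate ones (Ly6e, Ly6a, Ly6c1) and with no detectable one (Ly6d).

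**Figure D4:**
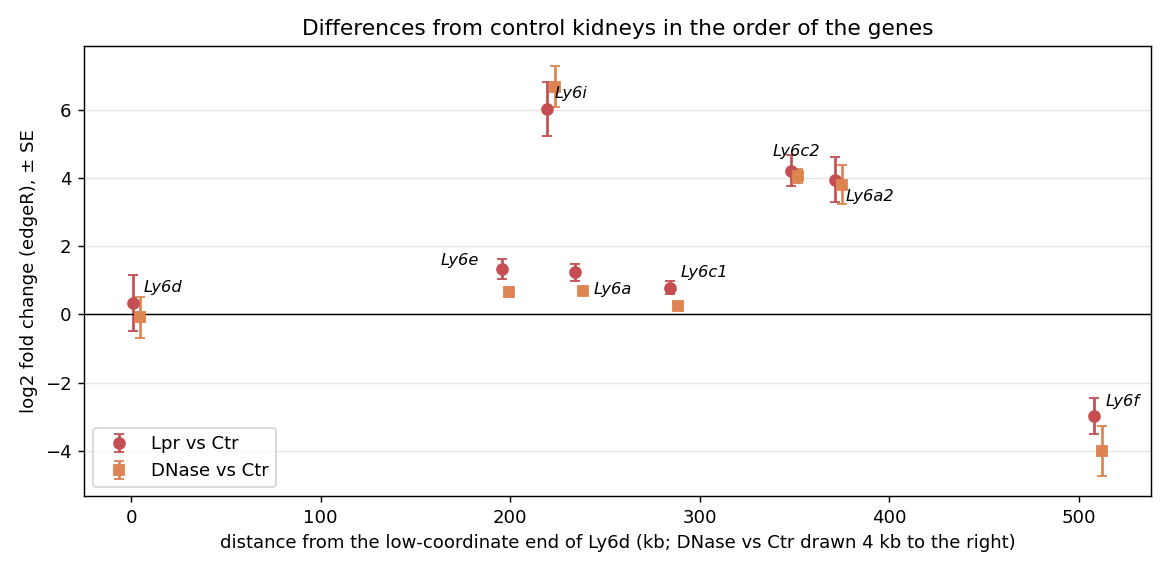
Log2 fold changes against Ctr with standard errors, plotted by distance in kb from the low-coordinate end of Ly6d, for the 6 tested members and the neighbours Ly6a2 and Ly6f. Ly6a, which passed at 1.23 in Lpr, lies between Ly6i at 6.02 and Ly6c1 at 0.78.

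Other genes of the Ly6 and urokinase receptor superfamily were taken from a list of 38, of which 32 were in the file. This list, and the interferon, GPI anchor and cell type lists below, were chosen with earlier results of these data known. Shares of all genes beside them are therefore a description and not a test of the lists. In Lpr vs Ctr 2 of 16 tested passed, Ly6a2 upward and Ly6f downward, with a list median of -0.29. Among all genes tested there, 7.27% rose and 2.92% fell. In DNase vs Ctr 3 of 16 rose and 5 fell, with a median of -0.54, against 13.1% and 8.61% of all genes. Those that fell included Gpihbp1, the endothelial anchor of lipoprotein lipase (log2 fold change -0.93, SE 0.159, edgeR adjusted p = 0.00268), Cd59a, an inhibitor of complement lysis (-0.71, SE 0.108, adjusted p = 0.00133), and Plaur, the urokinase receptor (-0.6, SE 0.158, adjusted p = 0.0253). With all 3 groups in 1 fit these 3 calls were lost (edgeR adjusted p = 0.0658 for Gpihbp1, 0.0519 for Cd59a and 0.314 for Plaur), and that of Plaur was also lost without Ctr replicate 3 (0.101), DNase replicate 2 (0.0661) or DNase replicate 4 (0.0726). In DNase vs Lpr 0 of 17 passed the edgeR test, with 2 at an unadjusted p under 0.05 (5.6% of all genes) and 1 by DESeq2. Plaur lay below Lpr in all 4 DNase kidneys (log2 fold change -1.06, SE 0.318, edgeR adjusted p = 0.82), a separation that 1.68% of genes showed. Ly6g, the neutrophil antigen of the same locus, had no count in Ctr, 0 to 3 counts in the MRL/lpr kidneys and no test.

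Interferon-induced genes differed in the same comparisons. Of 25 listed, 21 rose in Lpr vs Ctr (median log2 fold change 1.82), among them Bst2 (2.83, edgeR adjusted p = 0.000929), a tethering factor of virus particles, and Isg15 (1.82, adjusted p = 0.00591), a ubiquitin-like modifier. In DNase vs Ctr 21 rose and 1 fell (median 0.94). Over all genes, 7.27% rose in Lpr vs Ctr, and 13.1% rose and 8.61% fell in DNase vs Ctr. In DNase vs Lpr 0 of 25 passed the edgeR test and 0 passed by DESeq2, 16 had an unadjusted p under 0.05 and all 25 values were negative (median -0.7). Such a p was found in 5.6% of all genes, whose median was -0.02. Summed levels were 398 to 442 CPM in Ctr, 1545 to 3485 in Lpr and 1419 to 1647 in DNase. The summed level of the 7 members was 762 to 879.9 CPM in Ctr, 1287 to 2343 in Lpr and 1202 to 1454 in DNase, and the part of interferon-induced expression in it was not tested. Of 24 genes for synthesis and attachment of the GPI anchor, 0 passed in Lpr vs Ctr by edgeR and 0 by DESeq2 (1 at an unadjusted p under 0.05), and 1 rose and 1 fell in DNase vs Ctr.

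Markers of several cell types also differed from Ctr, and whether they followed the members from kidney to kidney was not tested. In Lpr vs Ctr 6 of 6 macrophage markers (117 to 154 CPM summed in Ctr, 486 to 982 in Lpr), 6 of 6 T cell markers (4.97 to 6.86 against 74.9 to 153), 4 of 8 classical monocyte markers (89.1 to 131 against 178 to 382) and 5 of 7 nonclassical monocyte markers (242 to 341 against 150.2 to 640.5) rose. Of the tested markers, 4 of 7 of plasma cells (175 to 194 against 398 to 1015) and 3 of 8 of neutrophils (4.88 to 13.4 against 20 to 52.4) rose too. Over all genes tested, 7.27% rose. Some Ctr sums came mostly from 1 gene and are not a measure of leukocyte number. These genes were Ace (mean 282 CPM) for nonclassical monocytes, Fn1 (82.4) for classical monocytes and Xbp1 (141) for plasma cells. Ace had a mean of 229.7 CPM in Lpr and did not rise. By edgeR 0 of 12 endothelial (849 to 1013 against 704 to 865), 0 of 6 fibroblast (154 to 352 against 226 to 375), 0 of 7 urothelial and squamous and 0 of 8 tubule and podocyte markers passed. Their numbers by DESeq2 were 0, 0, 0 and 1, and before adjustment 1, 0, 0 and 1 had a p under 0.05. Of the defining markers, Ly6g had no count in Ctr and Krt13 none in Ctr or Lpr. In DNase the summed levels were 394 to 725 CPM for macrophages, 73.3 to 118 for T cells, 137 to 253 for classical monocytes, 252 to 408 for nonclassical monocytes, 467 to 1262 for plasma cells, 18.3 to 32.4 for neutrophils, 665 to 912 for endothelium and 169 to 300.1 for fibroblasts. In DNase vs Ctr 2 of 12 endothelial markers fell, Egfl7 (log2 fold change -0.38, edgeR adjusted p = 0.0209) and Cldn5 (-0.54, adjusted p = 0.0295), as did 8.61% of all genes. In DNase vs Lpr no marker passed by edgeR, but all 6 fibroblast values were negative (median -0.53, 4 at an unadjusted p under 0.05, 0 by DESeq2). So were all 6 macrophage (median -0.39), all 9 tested neutrophil (-0.47) and all 6 tested urothelial and squamous values (-1.32). Of these, 1, 1 and 0 had an unadjusted p under 0.05, and none passed by DESeq2. The other tested marker lists had values of both signs, and 5.6% of all genes had such a p. Of the classical monocyte markers 4 of 8 had an unadjusted p under 0.05 there and 1 passed by DESeq2, F13a1 (edgeR log2 fold change -2, SE 0.384, adjusted p = 0.82). The part of these cell types in the Ly6 values was not tested.

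Finally, the genes whose levels followed each member most closely from kidney to kidney were taken among 13269 genes, after centring log2 CPM on each group's mean over the 11 kidneys. For Ly6a these were Mapkapk2, a stress kinase (r = 0.98), Tuba1c (0.96) and Ywhaz (0.95). Ly6c1 was followed by Anln (0.94), Serpine2 (0.93) and Aspm (0.91), of which Anln and Aspm act in cell division. Ly6c2 was followed by Ppp1r7 (0.93), Dkc1 (0.92) and Rbm3-ps (0.92), and Ly6e by Dtl (0.95), Ripk3 (0.92) and Epop (0.92). For Ly6d the genes were Wnt4 (0.96), Cd55 (0.96) and Clstn3 (0.96), and for Ly6i Cdipt (0.97), LOC118567469 (0.97) and Zbtb11os1 (0.95). The 6 sets had no gene in common, and without Lpr replicate 3 the values were 0.89 to 0.98. Each is among the 3 highest of 13269 correlations over few kidneys that share libraries and depth, and none was tested.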

How the data were processed

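Kidney RNA of 11 mice (3 Ctr, 4 Lpr, 4 DNase) was sequenced, with 1 library per mouse. The authors deposited raw gene counts, which were not normalized. FPKM values, deposited by the authors, divide these counts by library total and gene length. The submitters' processing notes name fastp, HTSeq, DESeq2, R 3.2.0 and mm10. The study's methods name HTSeq also for placing reads on reference genes. No other aligner and no annotation are given in the sources used here. Unused sample columns numbered 0.

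Groups were compared in pairs with edgeR 4.0.16 in R 4.3.3, by the quasi-likelihood test on all genes after filterByExpr and TMM scaling, with Benjamini-Hochberg adjustment. SE is the log2 fold change divided by the root of the test's F. The method was run on simulated counts with large planted changes in genes above a minimum level. That run does not cover the smaller differences, genes with few counts or a library with a length trend. Alternatives were DESeq2 1.42.0, limma 3.58.1 on log2(FPKM + 1) and log2(FPKM + 0.1), other scaling and filters, a gene length offset, all groups in 1 fit, a replicate block and leaving out each library. Shares of Ly6c2 were compared by exact permutation tests. Positions and transcripts came from GENCODE vM21 (GRCm38), and promoters from RefSeq (GRCm38.p6). Coding sequences were not taken from the annotation. The longest open reading frame of each protein-coding transcript was found, and the frame shared by most transcripts of a gene was used. Ly6a2 was listed under another symbol and matched through RefSeq synonyms. Sequences were aligned with Biopython 1.88, and figures drawn with matplotlib 3.10.9.

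Replicate numbers did not pair the samples, and p-values measure the spread between mice. No 2 replicates agreed within sampling noise (chi-square per degree of freedom of 17.5 or more). Members and gene lists were chosen with earlier results of these data known. All 7 members were named, with superfamily genes past the test in Lpr vs Ctr, Ly6g, Cd59a, Gpihbp1 and Plaur, and for each member with a mean of at least 1 CPM the 3 genes with the highest correlation, without symbols of the Gm and Rik kinds.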

Additional observations from a re-analysis of the deposited data

Results flagged for a closer look

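In 3 groups of 4 kidneys, 1 kidney lay far from the others by the ratio of its gap to the group's range on log2 CPM, above the 95% critical value of Dixon's test. Ly6c1 in Lpr had a ratio of 0.861, with replicate 4 (111 CPM) below the other 3 (156 to 164 CPM). Ly6i in Lpr had a ratio of 0.853, with replicate 3 (5.2 CPM) above the others (1.78 to 2.09 CPM). Ly6d in DNase had a ratio of 0.839, with replicate 1 at 8.73 CPM and the others at 9.56 to 9.73 CPM, in a group whose whole spread was small. Of 20 such groups checked, chance alone gives about 1 in 20.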

How the results depend on the processing

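Ly6c2 and Ly6i were past the test in all 16 alternatives against Ctr, as were Ly6a2 and Ly6f. Their sizes were smaller on the log2(FPKM + 1) scale of limma (1.63 for Ly6i, 0.94 for Ly6a2 and -1.71 for Ly6f in Lpr vs Ctr), where a pseudocount compresses low genes. In Lpr vs Ctr the 5 members past the test became 2 when a log2 fold change of 2 was asked for and 2 to 5 when 1 library was left out. The lowest counts came without Ctr replicate 1 or 2 (2 members) and without Ctr replicate 3 or Lpr replicate 2 (3 members). In DNase vs Ctr the 4 members became 2 with all 3 groups in 1 fit, 2 past a log2 fold change of 2 and 3 to 4 with 1 library left out. The 8 superfamily genes of DNase vs Ctr became 2 with all 3 groups in 1 fit, 2 past a log2 fold change of 2 and 4 to 8 with 1 library left out (4 without Ctr replicate 3 or DNase replicate 4, 5 without DNase replicate 2). DESeq2 called 1 superfamily gene in DNase vs Lpr where edgeR called 0.

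The replicate number as a block, which did not pair the samples (no comparison had every correlation above 0.1, and samples did not all correlate best with their own number), left 4 members past the test in Lpr vs Ctr, 4 in DNase vs Ctr and 4 superfamily genes in DNase vs Ctr. It gave Ly6c1 an adjusted p of 0.0614 in Lpr vs Ctr and turned Ly6d in DNase vs Ctr to 0.38.

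The sign of Ly6d and of Ly6c2 in the comparisons without a call was not stable. Ly6d was -0.06 in Lpr vs Ctr with the length offset and -0.18 to 1.07 with 1 library left out. In DNase vs Ctr it was 0.51 and 0.65 by limma with pseudocounts of 1 and 0.1, and -0.6 to 0.64 with 1 library left out, positive without Ctr replicate 3. In DNase vs Lpr it was -0.72 to 0.06 with 1 library left out, positive without Lpr replicate 3. Ly6c2 in DNase vs Lpr was 0.03 and 0.04 by limma, 0.05 with the length offset and -0.41 to 0.12 with 1 library left out, positive without Lpr replicate 3. The cause was not tested.

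Over all genes, 1639 passed in Lpr vs Ctr and 852 to 2824 under the alternatives, with 3493 and 1869 to 4360 in DNase vs Ctr, and 0 and up to 19 (DESeq2) in DNase vs Lpr. The length offset moved the median of all genes from 0.027 to -0.088 in Lpr vs Ctr and from 0.002 to -0.108 in DNase vs Ctr. It changed the split of higher and lower genes from 1169 and 470 to 1246 and 970, and from 2107 and 1386 to 1803 and 2557. Without Lpr replicate 3 the split in Lpr vs Ctr was 1748 and 1076. Low counts limited Ly6k, Ly6i and Ly6a2 in Ctr.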

Other observations

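Lypd6, a superfamily member that binds Wnt coreceptors, was the gene that DESeq2 called in DNase vs Lpr, and it was singled out after its values were seen. Its mean was 8.48 CPM in DNase, 4.76 CPM in Lpr and 5.48 CPM in Ctr, and the DNase kidneys were above both other groups without overlap. Such a separation from Ctr was seen in 18.2% of genes, and the share of genes above Lpr is not reported here. The edgeR log2 fold change was 0.83 (SE 0.181, adjusted p = 0.82) against Lpr and 0.63 (SE 0.169, adjusted p = 0.0265) against Ctr. The call against Ctr was lost with all 3 groups in 1 fit (adjusted p = 0.056), with the replicate block (0.103) and without Ctr replicate 2 (0.0759), Ctr replicate 3 (0.098), DNase replicate 1 (0.0507), DNase replicate 3 (0.0652) or DNase replicate 4 (0.0503).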
